A study of Mus musculus with 6 samples.

Results

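The genes described here are 42 cell cycle genes of the mouse, chosen by symbol: 19 that act at the start of DNA replication or during S phase and 23 that act in G2 and mitosis, with histone genes left out. All 42 are among the 21760 gene symbols of the count table, and all 42 passed the filter on low counts that left 15560 genes to test. RNA was sequenced from macrophages that had been isolated by cell sorting from MC38 tumours, a mouse colon carcinoma line grown subcutaneously in C57BL6 mice until day 16. The tumours were knocked out for Xkr8 (KO), the scramblase that exposes phosphatidylserine on dying cells, or wild type (WT), and no further treatment was given. There were 2 libraries from tumours of KO clone 1, 2 from KO clone 2 and 2 from WT tumours. In each group the mice are numbered 1 and 2, and whether a number recurring in another group is the same mouse is not stated. The titles name the WT tumours "WTb" without saying what the b stands for. Each KO line is 1 clone and how the WT line was derived is not stated, so loss of Xkr8 and other traits of the clones cannot be told apart. The knockout was in the tumour cells and the macrophages came from the host, so Xkr8 in these libraries does not check the labels. Which markers were used to sort the macrophages is not stated in the labels.

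Cells that divide copy their DNA once and then separate the copies. Before replication, loading factors place the MCM helicase on DNA, and cyclin E with CDK2 starts its firing; later, cyclins A and B with CDK1 drive entry into mitosis, the spindle checkpoint delays the separation of sister chromatids, and the anaphase-promoting complex then starts it. E2F factors drive many genes of the first step, while the DREAM and MuvB complexes, with B-MYB and FOXM1, act on many genes of the second. Most differentiated macrophages rest outside the cycle, though macrophages of some tissues and tumours can divide under CSF1. In bulk RNA a lower level of such a gene can come from fewer cycling cells or from less RNA in each, and these cannot be told apart here.

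No cell cycle gene passed the test between macrophages of KO and WT tumours, between either clone and WT, or between the clones. The genes were well covered: they took 0.374% to 0.481% of the counts of a library, and the lowest count of any member was 76, for Ccne2 in WT mouse 2, against 491 to 721 for the lowest member of each other library. Levels are given as CPM, counts scaled to the depth of each library, with library sizes set by the TMM method. Values of the KO libraries are listed for mice 1 and 2 of clone 1 and then of clone 2, and those of the WT libraries for mouse 1 and then mouse 2. Per kilobase of the longest coding transcript, the genes with the highest levels were Pcna (a mean of 174 CPM per kb in KO and 133 in WT libraries), the sliding clamp of DNA polymerase, and Top2a (118 in KO and 109 in WT), the topoisomerase that untangles sister chromatids. By the KO mean, Ccna2 (57.0 in KO and 45.1 in WT) and Mcm6 (56.7 in KO and 58.6 in WT) came next, while in WT libraries Mcm6, Mcm3 (54.6 CPM per kb), Mcm5 (51.9) and Tk1 (46.4) were above Ccna2. Gins2 was lowest per kilobase, at 3.48 CPM per kb in KO and 4.55 in WT libraries.

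Promoters were set beside these roles because S phase and mitotic genes are known for different elements. A window from 250 bases before to 50 bases after the annotated start was at hand in RefSeq (GRCm38.p6) for 34 of the 42 genes, 16 with S phase and 18 with G2/M roles. An E2F element, read as TTTCCCGC, TTTGGCGC or TTTCGCGC on either strand, was in the window of 43.8% of the S phase genes (7 of 16) and 5.56% of the G2/M genes (1 of 18), beside 3.7% of the 11579 tested genes with a promoter and 2.12% of all 27025 genes of the promoter table. A CHR element, the letters TTTGAA on either strand, to which the DREAM and MuvB complexes bind, was in 66.7% of the G2/M genes (12 of 18) and 12.5% of the S phase genes (2 of 16), beside 15.0% of the tested genes and 20.2% of the whole table. The variant TTCGAA was in 16.7% of G2/M, 6.25% of S phase and 2.37% of tested genes. A CCAAT box on either strand was in 83.3% of G2/M, 62.5% of S phase and 42.4% of tested genes, and 2 or more of them in 55.6%, 37.5% and 15.7%. A match of letters describes the window and does not show that a factor binds there.

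**Figure D1:**
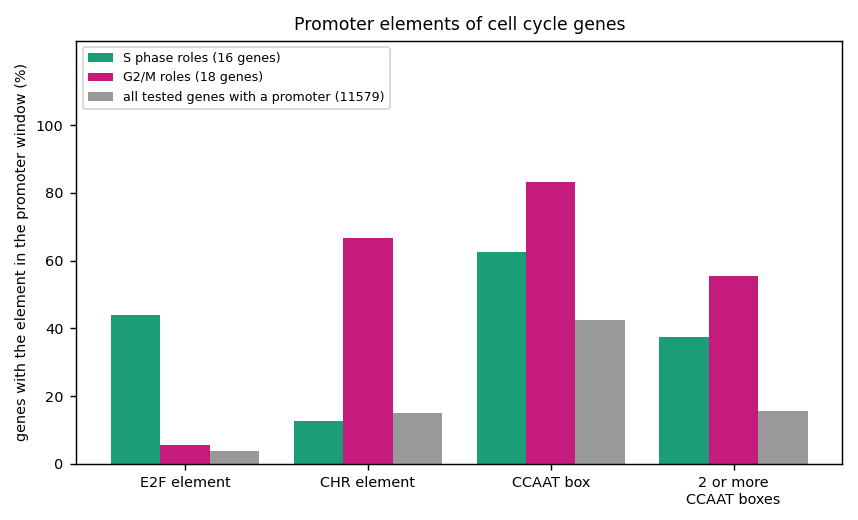
Share of genes, in percent, whose promoter window holds an E2F element, a CHR element, a CCAAT box, or 2 or more CCAAT boxes, for 16 genes with S phase roles, 18 with G2/M roles and 11579 tested genes. E2F elements stood at 43.8% in S phase genes and CHR elements at 66.7% in G2/M genes, against 3.7% and 15.0% of tested genes.

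The 160 bases before the start of 7 of the genes show the arrangement, read 5′ to 3′ along the strand of the gene (RefSeq, GRCm38.p6). Capitals mark E2F elements, CHR elements and CCAAT boxes on either strand, so that ATTGG is a CCAAT box and TTCAAA a CHR element on the opposite strand. Mcm5 (chr8:75109349-75109508, plus strand) and Mcm6 (chr1:128359706-128359865, minus strand), subunits of the replicative helicase, stand for the S phase genes; in each, a pair of E2F matches on opposite strands overlaps in a single run of capitals.
Mcm5: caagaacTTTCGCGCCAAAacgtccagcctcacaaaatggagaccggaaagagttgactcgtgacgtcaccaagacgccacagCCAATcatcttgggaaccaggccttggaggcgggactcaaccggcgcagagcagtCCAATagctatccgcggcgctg
Mcm6: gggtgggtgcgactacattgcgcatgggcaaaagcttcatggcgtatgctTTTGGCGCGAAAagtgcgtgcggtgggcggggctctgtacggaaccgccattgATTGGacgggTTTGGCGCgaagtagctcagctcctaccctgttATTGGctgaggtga
Cdk1 (chr10:69352913-69353072, minus strand), the kinase of mitotic entry, is the G2/M gene with an E2F element, which lies from base 131 to base 124 before the start, and it also has CHR elements.
Cdk1: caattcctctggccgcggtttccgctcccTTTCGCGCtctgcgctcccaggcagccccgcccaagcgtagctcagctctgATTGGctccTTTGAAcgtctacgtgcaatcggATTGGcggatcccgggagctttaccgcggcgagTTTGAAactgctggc
Ube2c (chr2:164769769-164769928, plus strand) and Cdc20 (chr4:118437344-118437503, minus strand), an E2 enzyme and an activator of the anaphase-promoting complex, Top2a (chr11:99024190-99024349, minus strand) and Mki67 (chr7:135716380-135716539, minus strand), the gene of the Ki-67 antigen that marks cycling cells, have CHR elements and CCAAT boxes. The CHR element begins 29 bases before the start in Ube2c, 18 in Cdc20 and 23 in Top2a, and those of Mki67 begin 116 and 98 bases before it.
Ube2c: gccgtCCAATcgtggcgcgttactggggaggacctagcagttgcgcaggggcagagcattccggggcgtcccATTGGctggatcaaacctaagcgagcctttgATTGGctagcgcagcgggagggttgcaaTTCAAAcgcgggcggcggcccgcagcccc
Cdc20: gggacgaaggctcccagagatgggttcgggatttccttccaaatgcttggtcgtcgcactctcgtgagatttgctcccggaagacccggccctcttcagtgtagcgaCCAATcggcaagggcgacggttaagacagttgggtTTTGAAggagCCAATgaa
Top2a: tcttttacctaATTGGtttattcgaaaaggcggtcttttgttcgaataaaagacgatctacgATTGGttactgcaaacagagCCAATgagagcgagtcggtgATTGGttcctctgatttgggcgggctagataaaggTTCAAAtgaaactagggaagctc
Mki67: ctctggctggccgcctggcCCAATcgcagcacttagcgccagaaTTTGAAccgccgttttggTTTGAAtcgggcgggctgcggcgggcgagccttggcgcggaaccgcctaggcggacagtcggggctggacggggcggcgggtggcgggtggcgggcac

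The library of WT mouse 2 differed from all others, which touches every comparison with WT. Its total was 20038047 counts against 37090034 to 40022755 in the other 5, the ribosomal precursor Rn45s took 24.6% of it against 1.46% to 7.12%, and its Pearson correlations of log2 CPM with the others were 0.912 to 0.927. Macrophage markers were abundant: Adgre1, which encodes F4/80, stood at 866, 767, 966 and 946 CPM in KO libraries, against 667 and 528 CPM in WT libraries. Csf1r, the receptor for CSF1, stood at 1268, 1059, 1302 and 1283 CPM in KO libraries, against 1114 and 1633 CPM in WT libraries. Together 10 macrophage markers summed to 9872 to 11817 CPM in KO libraries, against 9292 and 11175 CPM in WT libraries. Every macrophage library thus held these genes at high levels. No marker of another cell type that is in the table was at 0 in every library. The summed level of 15 T and NK cell markers (of 18 fixed, those in the table) was 127 to 227 CPM in KO libraries, against 27.7 and 47.3 CPM in WT libraries, with Cd3e between 0.443 and 2.84 CPM in KO libraries, against 0.0220 and 1.86 CPM in WT libraries. For the 10 fibroblast markers it was 2476 to 3952 CPM in KO libraries, against 4160 CPM in WT mouse 1 and 12015 CPM in WT mouse 2, with Col1a1 at 70.2, 34.4, 20.1 and 12.2 CPM in KO libraries, against 24.9 and 291 CPM in WT libraries. The T and NK cell sum was above both WT libraries in every KO library, and the fibroblast sum was highest in WT mouse 2. Col3a1 gave most of that sum, with 11320.2 CPM in WT mouse 2, where Dcn was lowest, at 127 CPM against 255 to 470 CPM in the others. The mean log2 CPM of the 10 fibroblast markers was 4.91 to 5.54 in KO libraries, against 4.92 and 5.43 in WT libraries, and overlapped. Monocyte markers summed to 3209 to 4105 CPM in KO libraries, against 3189 and 4387 CPM in WT libraries. Endothelial markers summed to 48.6 to 61.8 CPM in KO libraries, against 23.5 and 32.1 CPM in WT libraries, neutrophil markers to 53.8 to 71.9 CPM in KO, against 38.8 and 38.9 CPM in WT, and B cell markers to 8.44 to 13.6 CPM in KO, against 5.89 and 3.92 CPM in WT. In KO libraries Pecam1 gave 33.9 to 42.9 CPM of the endothelial sum and Csf3r 44.8 to 61.6 CPM of the neutrophil sum. Cd79b gave 7.76 to 12.3 CPM of the B cell sum. Under 1 CPM in every library were 4 of 8 endothelial, 8 of 10 neutrophil and 3 of 5 B cell markers. Cxcr2, a neutrophil marker, was lower in every KO library than in both WT libraries. The endothelial, neutrophil and B cell sums were above both WT libraries in every KO library, and the monocyte sum was not. By mean log2 CPM, which weights the markers equally, the monocyte list was above WT too, at 5.85 to 6.28 in KO libraries, against 4.48 and 4.19 in WT libraries, and the B cell list overlapped, at -1.65 to -0.74 in KO libraries, against -1.47 and -1.79 in WT libraries. Of 9 epithelial or tumour cell markers in the table, 7 (Epcam, Krt8, Krt18, Krt7, Krt20, Cldn4 and Cldn7) were under 1 CPM in every library, and the sum was 12.0 to 13.6 CPM in KO libraries, against 16.5 and 44.1 CPM in WT libraries, of which Cdh1 gave 15.1 and 43.1 CPM. What share of the cell cycle RNA came from cells other than macrophages was not tested.

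**Figure D2:**
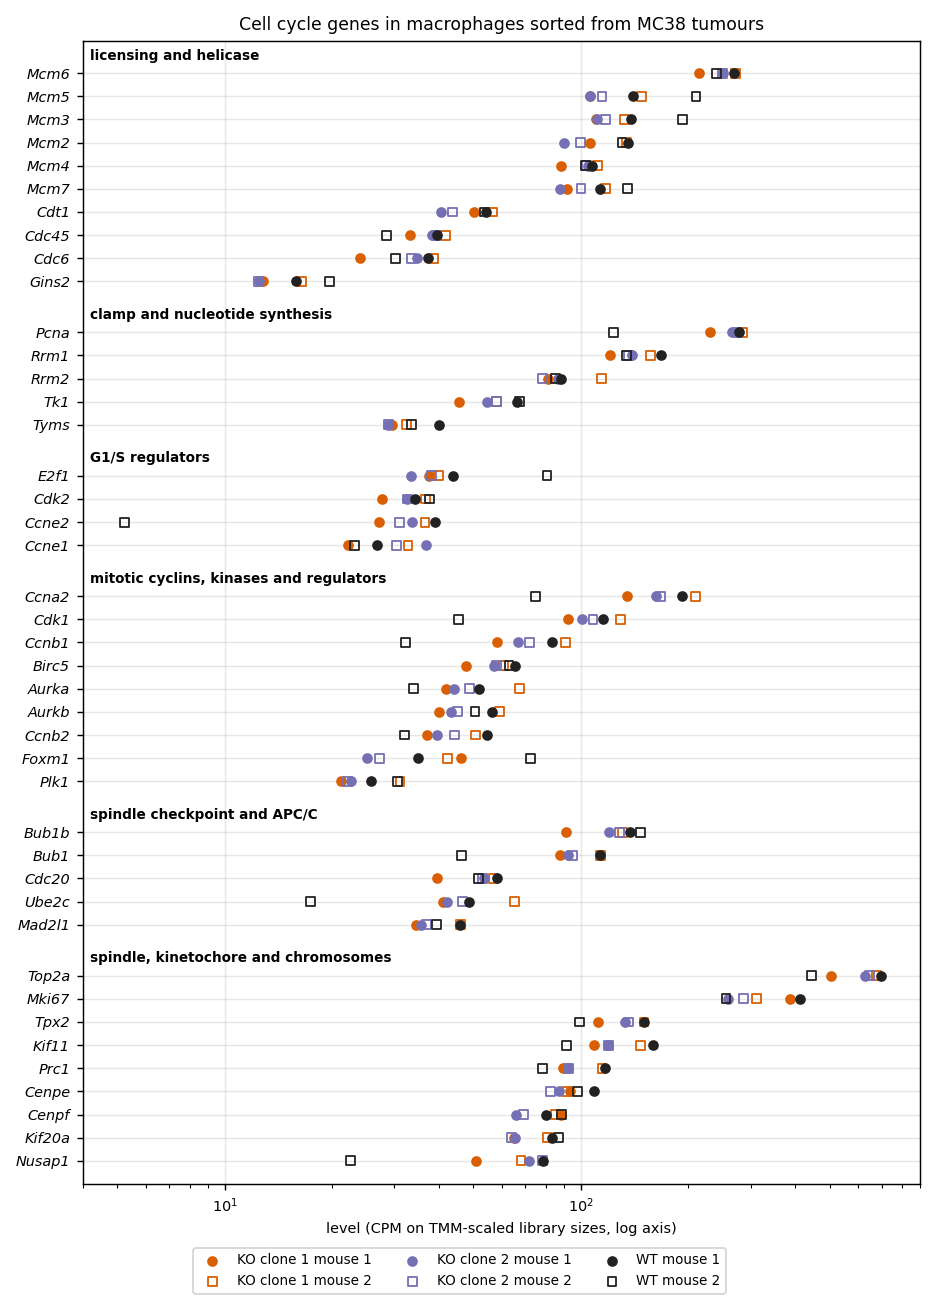
Level of each of the 42 cell cycle genes in each of the 6 libraries, in CPM on a log axis, grouped by role and ordered by mean KO level, with KO clone 1 in orange, KO clone 2 in purple and WT in black (filled for mouse 1, open for mouse 2). The open black squares of WT mouse 2 lie outside the range of the other 5 libraries in 27 genes, below it in 16 and above it in 11; that is 64.3% of the members, beside 73.8% of all 15560 genes tested.

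The first comparison set macrophages of KO tumours (4 libraries) against those of WT tumours (2 libraries). It asks whether growth in an Xkr8 KO tumour goes with another level of proliferation genes in the macrophages. DESeq2 called 0 of 42 members, beside 499 genes over the whole table. By edgeR's quasi-likelihood test, 0 of 42 members passed an adjusted p of 0.05, beside 0.135% of all genes tested (21 of 15560). At an unadjusted p under 0.05 there were 0 higher and 3 lower members (E2f1, Mcm3 and Mcm5), or 7.14% of the 42, below the 13.6% of all genes (7.38% lower). Of the 42 log2 fold changes 14 were positive and 28 negative, with a median of -0.11, beside a median of 0.00 over all genes. This test counts 4 libraries from 2 clones as 4 samples, although 2 mice with the same clone share 1 knockout event.

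**Figure D3:**
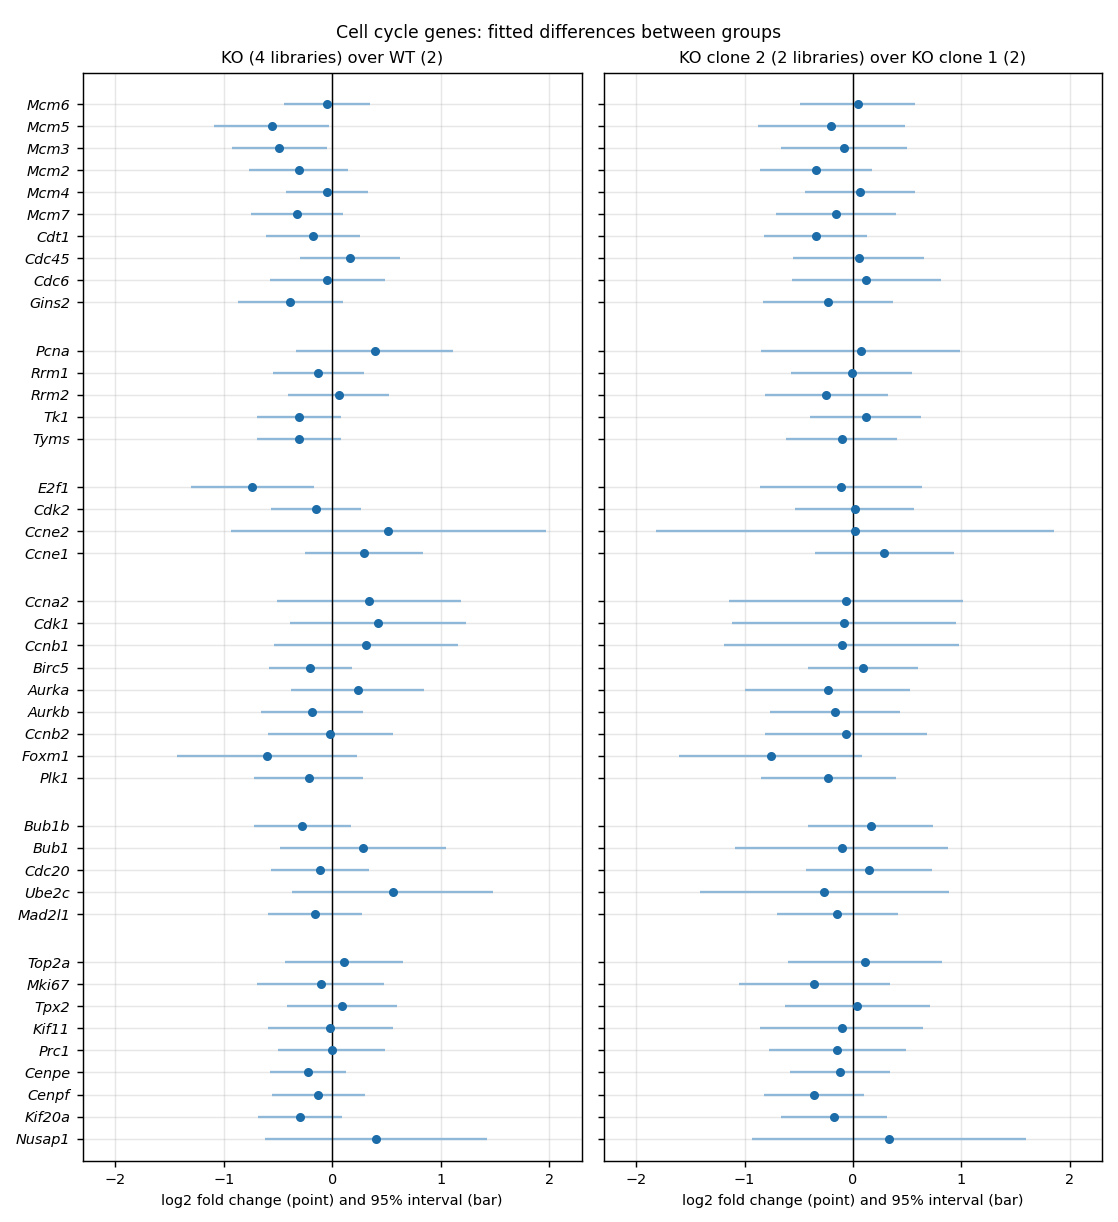
Fitted log2 fold changes of the 42 cell cycle genes (points) with 95% intervals (bars), for KO over WT on the left and KO clone 2 over KO clone 1 on the right, in the order of the plot of levels. No gene passed an adjusted p of 0.05 in either comparison; for KO over WT the points lie between -0.74 (E2f1) and 0.56 (Ube2c).

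The licensing and helicase genes load and start the replicative helicase. Of these 10 genes 1 had a positive and 9 a negative log2 fold change, with a median of -0.24, and 0 passed. Mcm3, a helicase subunit (chromosome 1, 20802968 to 20820312, GRCm38), stood at 111, 133, 111 and 118 CPM in KO libraries, against 138 and 193 CPM in WT libraries. Mcm5, another subunit, stood at 107, 148, 107 and 115 CPM in KO libraries, against 139.9 and 211 CPM in WT libraries. For Mcm3 every KO library lay below both WT libraries, and the higher WT value was that of mouse 2; for Mcm5 the groups overlapped, since clone 1 mouse 2 lay above WT mouse 1. The log2 fold change was -0.49 ± 0.19 (SE) for Mcm3 and -0.56 ± 0.23 for Mcm5, with adjusted p of 0.341 and 0.35. Mcm2 stood at 106, 134, 89.8 and 99.7 CPM in KO libraries, against 136 and 131 CPM in WT libraries, so that 3 KO libraries lay below both WT libraries and clone 1 mouse 2 between them, with a log2 fold change of -0.31 ± 0.20 (adjusted p = 0.449). Mcm6, the highest of the group per kilobase, averaged 247 ± 23.7 CPM in KO libraries (SD, n = 4) and 255 ± 19.95 CPM in WT libraries (SD, n = 2), a log2 fold change of -0.05 ± 0.17. Cdc45, which joins the helicase when it fires, was the positive member, with a log2 fold change of 0.16 ± 0.20.

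The clamp and the nucleotide enzymes supply the fork. Pcna stood at 230.5, 285, 266 and 276 CPM in KO libraries, against 279 and 124 CPM in WT libraries. WT mouse 1 lay within the KO range and WT mouse 2 far below it, and the log2 fold change of 0.39 ± 0.31 (95% interval -0.33 to 1.11, adjusted p = 0.515) took both WT libraries together. Tk1 and Tyms, a thymidine kinase and the thymidylate synthase that make dTMP, showed another layout. Tk1 stood at 45.6, 58.1, 54.5 and 58.1 CPM in KO libraries, against 66.3 and 67.3 CPM in WT libraries. Tyms stood at 29.6, 32.4, 28.7 and 28.9 CPM in KO libraries, against 40.1 and 33.5 CPM in WT libraries. In both genes the KO libraries lay below both WT libraries, by a log2 fold change of -0.30 ± 0.17 for Tk1 and -0.30 ± 0.17 for Tyms, each with an adjusted p of 0.417. The ribonucleotide reductase subunits Rrm1 (log2 fold change -0.13 ± 0.18) and Rrm2 (0.06 ± 0.20) did not pass either.

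Among the G1/S regulators, E2f1 had the smallest p of all 42 genes. E2f1, the factor that gives the E2F elements their name (chromosome 2, 154559407 to 154569892, GRCm38), stood at 37.5, 39.9, 33.5 and 38.1 CPM in KO libraries, against 43.9 and 80.5 CPM in WT libraries. All 4 KO libraries lay within a narrow range below both WT libraries, while WT mouse 2 stood far above WT mouse 1. The log2 fold change was -0.74 ± 0.24 (unadjusted p = 0.0172, adjusted p = 0.307). Ccne1, a cyclin E, stood at 22.2, 32.8, 36.8 and 30.4 CPM in KO libraries, against 26.8 and 23.2 CPM in WT libraries, with clone 1 mouse 1 below both WT libraries and the other KO libraries above them (log2 fold change 0.29 ± 0.23, adjusted p = 0.519). Its paralog Ccne2 (chromosome 4, 11191351 to 11204779, GRCm38) stood at 27.2, 36.6, 33.5 and 31.0 CPM in KO libraries, against 39.1 and 5.23 CPM in WT libraries. The WT libraries lay on both sides of all KO libraries, and the log2 fold change of 0.52 ± 0.62 had the largest standard error of the 42 genes. Cdk2, the partner kinase, had a log2 fold change of -0.15 ± 0.18.

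The mitotic cyclins, kinases and regulators had 4 positive and 5 negative log2 fold changes, with a median of -0.02. Cdk1 stood at 92.3, 129, 101 and 108 CPM in KO libraries, against 115 and 45.4 CPM in WT libraries. Ccnb1, its cyclin B partner, stood at 58.1, 90.8, 66.7 and 71.8 CPM in KO libraries, against 83.3 and 32.2 CPM in WT libraries. In both genes WT mouse 1 lay within the KO range and WT mouse 2 lay below all KO libraries; the log2 fold changes were 0.42 ± 0.35 (95% interval -0.39 to 1.23) and 0.31 ± 0.37 (-0.54 to 1.16), with adjusted p of 0.531 and 0.646. Foxm1, the forkhead factor of the G2/M programme, stood at 46.1, 42.3, 25.1 and 27.2 CPM in KO libraries, against 34.8 and 72.4 CPM in WT libraries. Here WT mouse 2 was the highest library, WT mouse 1 lay between the clones, and the log2 fold change of -0.60 ± 0.36 did not pass (adjusted p = 0.435). Birc5 (survivin), a subunit of the chromosomal passenger complex, stood at 47.6, 60.7, 57.2 and 58.1 CPM in KO libraries, against 65.6 and 62.9 CPM in WT libraries, every KO library below both WT libraries (log2 fold change -0.20 ± 0.17, adjusted p = 0.527). The kinases Plk1 (log2 fold change -0.22 ± 0.22), Aurka (0.23 ± 0.26) and Aurkb (-0.19 ± 0.20) and the cyclins Ccna2 (0.34 ± 0.36) and Ccnb2 (-0.02 ± 0.25) did not pass.

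The spindle checkpoint and the anaphase-promoting complex had 2 members with a positive and 3 with a negative log2 fold change, a median of -0.11. Ube2c stood at 41.2, 65.3, 42.02 and 46.6 CPM in KO libraries, against 48.5 and 17.4 CPM in WT libraries. WT mouse 2 was the lowest library and WT mouse 1 lay within the KO range, and the log2 fold change of 0.56 ± 0.40, the highest of the 42, did not pass (adjusted p = 0.481). Bub1b, a checkpoint protein of the kinetochore, stood at 91.0, 131, 120.5 and 128 CPM in KO libraries, against 138 and 147 CPM in WT libraries, below WT in every KO library (log2 fold change -0.28 ± 0.19, adjusted p = 0.475). The log2 fold change of the checkpoint kinase Bub1 was 0.28 ± 0.33, that of the checkpoint protein Mad2l1 -0.16 ± 0.19 and that of Cdc20 -0.11 ± 0.19.

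Genes of the spindle, kinetochore and chromosomes had 3 positive and 6 negative log2 fold changes, with a median of -0.02. Mki67 (chromosome 7, 135689784 to 135716361, GRCm38) stood at 386, 312, 259 and 287 CPM in KO libraries, against 414 and 256 CPM in WT libraries. The KO libraries all lay between the WT libraries, and the log2 fold change was -0.11 ± 0.25 (95% interval -0.69 to 0.48, adjusted p = 0.821). Top2a stood at 506, 677, 631 and 646 CPM in KO libraries, against 695 and 446 CPM in WT libraries, again inside the WT range in all 4 KO libraries (log2 fold change 0.11 ± 0.24, 95% interval -0.44 to 0.66, adjusted p = 0.807). Kif20a, a kinesin of the central spindle, stood at 65.1, 80.9, 65.6 and 63.9 CPM in KO libraries, against 83.0 and 86.5 CPM in WT libraries. Cenpe, a kinesin of the kinetochore, stood at 93.2, 91.3, 87.1 and 82.3 CPM in KO libraries, against 109 and 97.8 CPM in WT libraries. In these 2 genes every KO library lay below both WT libraries, with log2 fold changes of -0.30 ± 0.17 and -0.22 ± 0.15 and adjusted p of 0.419 and 0.467. The remaining members, Kif11, Cenpf, Nusap1, Tpx2 and Prc1, had log2 fold changes between -0.13 ± 0.18 (Cenpf) and 0.41 ± 0.44 (Nusap1).

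Across the 42 genes the KO libraries lay below both WT libraries in 8 (Mcm3, Tyms, Tk1, E2f1, Birc5, Bub1b, Kif20a and Cenpe) and above both in 0, and they overlapped in 34. Over all genes tested, the KO libraries lay entirely below in 10.7% and entirely above in 12.9%. The 95% intervals of 31 of the 42 fold changes stayed within 2-fold in both directions. Those of Pcna, Ccne2, Ccna2, Ccnb1, Cdk1, Bub1, Ube2c and Nusap1 reached 2-fold higher in KO, and those of Mcm5, E2f1 and Foxm1 2-fold lower, so the data leave room for a change of that size in these 11 genes. Standard errors of the log2 fold changes ran from 0.15 to 0.62.

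These values depend on which WT mouse they are set against. Without WT mouse 2, 2 log2 fold changes were positive and 40 negative, with a median of -0.24 and 0 members past the threshold, and KO libraries lay below WT mouse 1 in 19 members and above it in 0 (21.3% and 23.5% of all genes). Without WT mouse 1, 21 were positive and 21 negative, 12 members passed, and KO libraries lay above WT mouse 2 in 16 members and below it in 14 (41.4% and 37.2% of all genes). In that fit 4 were lower in KO (E2f1, Foxm1, Mcm5 and Mcm3, between -1.10 and -0.69) and 8 higher (Bub1, Pcna, Ccnb1, Ccna2, Cdk1, Ube2c, Nusap1 and Ccne2, between 1.08 and 2.63), with adjusted p of 0.000954 to 0.0423. It rests on WT mouse 2 as the lone WT library and called 6020 genes in all, so these 12 calls describe that library set against the KO libraries.

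The WT libraries differed from each other in these genes. The SD of the log2 ratio between the 2 mice of a group, taken over the 42 genes, was 0.21 in clone 1, 0.09 in clone 2 and 0.75 in WT, beside 0.62, 0.49 and 1.08 over all genes in the same pairs. WT mouse 2 was higher than WT mouse 1 in 12 members and lower in 30, with log2 ratios from -2.90 (Ccne2) to 1.05 (Foxm1) and a difference above 2-fold in 9 of 42 (21.4%), beside 28.8% of 15041 genes with a ratio. In the KO libraries the highest value was less than 2 times the lowest in all 42 genes. WT mouse 1 lay within the KO range in 23 members, above it in 19 and below it in 0. Across the members, the ratio of WT mouse 2 to mouse 1 was higher in genes with more GC in the longest coding transcript, with a Spearman correlation of 0.56 (n = 42 genes, which share both libraries and are not independent), and of 0.50 across 13458 genes. The 14 members with the lowest GC had a median log2 ratio of -0.61, the middle 14 one of -0.39 and the 14 with the highest GC one of 0.14. Ccne2, at 36.3% GC, was the lowest of all in GC and in ratio, while E2f1 had 58.3% GC and a log2 ratio of 0.88. Other genes departed from the trend. Ube2c, at 55.5% GC, had a log2 ratio of -1.48, and Cdt1, the highest in GC at 58.8%, one of -0.02. Of the 14 members with the highest GC, 8 had a positive and 6 a negative log2 ratio. The correlation with GC was 0.69 across the 19 S phase genes and 0.34 across the 23 G2/M genes. The part of GC and of the ribosomal share in this difference was not tested.

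**Figure D4:**
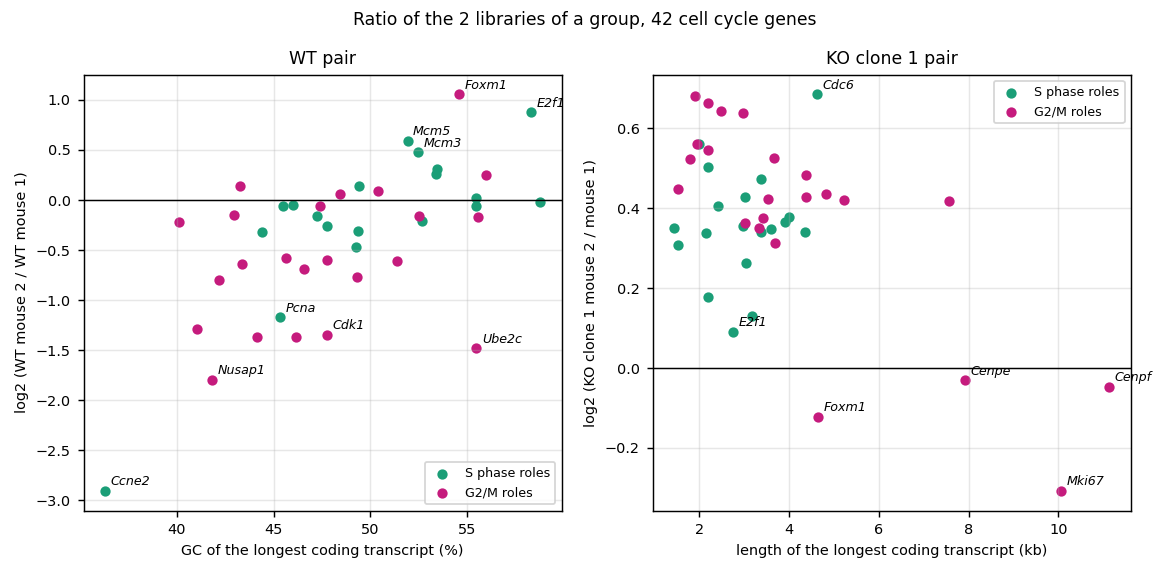
Log2 ratio of the 2 libraries of a group for each of the 42 genes: WT mouse 2 over mouse 1 against the GC content of the longest coding transcript in percent (left), and KO clone 1 mouse 2 over mouse 1 against its length in kb (right), with S phase genes in green and G2/M genes in magenta. On the left the ratios run from -2.90 for Ccne2 to 1.05 for Foxm1; on the right 38 of 42 genes lie above 0.

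The balance of S phase and G2/M genes also set WT mouse 2 apart. The summed level of the 19 S phase genes was 1460, 1863, 1589 and 1624 CPM in KO libraries, against 1836 and 1737 CPM in WT libraries. For the 23 G2/M genes it was 2313, 2882, 2431 and 2528 CPM in KO libraries, against 2970 CPM in WT mouse 1 and 2003 CPM in WT mouse 2. The ratio of S phase to G2/M sums was 0.631, 0.646, 0.653 and 0.642 in KO libraries, against 0.618 in WT mouse 1 and 0.867 in WT mouse 2. The KO libraries and WT mouse 1 stayed between 0.618 and 0.653. The part of transcript GC and of the ribosomal share in the ratio of WT mouse 2 was not tested. The sum over all 42 genes was 3773 to 4745 CPM in KO libraries, against 4806 and 3740 CPM in WT libraries, and the KO range lay inside the WT range.

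**Figure D5:**
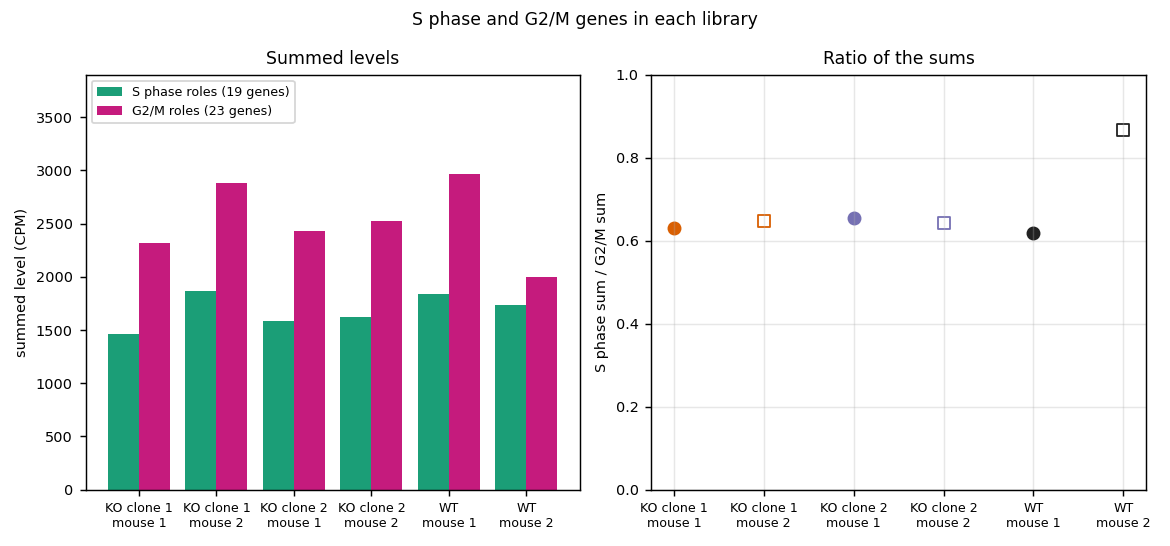
Summed CPM of 19 S phase genes (green) and 23 G2/M genes (magenta) in each of the 6 libraries (left) and the ratio of the sums (right), with KO libraries left of WT libraries. The ratio lies between 0.618 and 0.653 in 5 libraries and at 0.867 in WT mouse 2.

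Each KO clone was also set against WT; these comparisons share the WT libraries with each other and with the first. In clone 1, 0 of 42 members passed by edgeR's quasi-likelihood test, beside 0.00643% of all genes, and 0 had an unadjusted p under 0.05, beside 7.1%. DESeq2 called 0 members there, beside 271 genes over the whole table. In clone 2, DESeq2 called 0 members, beside 465 genes over the whole table. By edgeR's test 0 members passed, beside 0.00643% of all genes. At an unadjusted p under 0.05 there were 2, both lower, beside 11.3% of all genes in either direction and 6.17% lower. These were E2f1 and Foxm1. The log2 fold change of E2f1 against WT was -0.79 ± 0.31 in clone 2 and -0.68 ± 0.31 in clone 1, and that of Foxm1 was -1.03 ± 0.35 in clone 2 and -0.27 ± 0.35 in clone 1. In clone 2 the adjusted p was 0.437 for E2f1 and 0.403 for Foxm1. Clone 2 libraries lay below both WT libraries in 19 members and above in 1 (Ccne1), beside 25.3% and 26.5% of all genes. Clone 1 libraries lay below in 8 and above in 0, beside 15.1% and 17.4%. The median log2 fold change of the members was -0.11 in clone 2 and -0.07 in clone 1, beside -0.03 and 0.02 over all genes.

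The comparison of clone 2 with clone 1 asks whether macrophages from tumours of the same genotype differ. DESeq2 called 0 members between the clones, beside 117 genes over the whole table. By edgeR's quasi-likelihood test 0 of 42 members passed, beside 0% of all genes, and 0 had an unadjusted p under 0.05, beside 3.23%. Foxm1 had the smallest unadjusted p, with 25.1 and 27.2 CPM in clone 2 libraries, against 46.1 and 42.3 CPM in clone 1 libraries. Both clone 2 libraries lay well below both clone 1 libraries, by a log2 fold change of -0.76 ± 0.35 (95% interval -1.60 to 0.09, unadjusted p = 0.0712, adjusted p = 1). Cenpf, a kinetochore protein, stood at 65.8 and 69.2 CPM in clone 2 libraries, against 88.0 and 85.2 CPM in clone 1 libraries (log2 fold change -0.36 ± 0.19). Cdt1, which loads the helicase, stood at 40.6 and 43.6 CPM in clone 2 libraries, against 50.2 and 56.7 CPM in clone 1 libraries (log2 fold change -0.34 ± 0.20). In both genes the clones did not overlap, and neither passed. Mki67 stood at 259 and 287 CPM in clone 2 libraries, against 386 and 312 CPM in clone 1 libraries, also without overlap (log2 fold change -0.36 ± 0.29, 95% interval -1.05 to 0.34).

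In the other direction, Ccne1 stood at 36.8 and 30.4 CPM in clone 2 libraries, against 22.2 and 32.8 CPM in clone 1 libraries (log2 fold change 0.29 ± 0.27). Nusap1, a spindle protein, stood at 71.6 and 78.2 CPM in clone 2 libraries, against 50.7 and 68.0 CPM in clone 1 libraries (log2 fold change 0.34 ± 0.53). Bub1b stood at 120.5 and 128 CPM in clone 2 libraries, against 91.0 and 131 CPM in clone 1 libraries (log2 fold change 0.16 ± 0.24). Nusap1 did not overlap between clones, Ccne1 and Bub1b did, and none passed. Over the list, clone 2 libraries lay above both clone 1 libraries in 1 gene and below in 8 (Cdt1, Mcm2, Gins2, Tyms, Foxm1, Cenpe, Cenpf and Mki67), beside 21.8% and 22.7% of all genes. The median log2 fold change was -0.10, beside -0.02 over all genes, and 33 of the 42 intervals stayed within 2-fold.

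The mice of clone 1 differed from each other in these genes as a whole. Mouse 2 was higher than mouse 1 in 38 of 42 members, with a median log2 ratio of 0.39, whereas over 15505 genes 7849 were higher and the median was 0.01. All 19 S phase genes were higher in mouse 2. The 4 exceptions were Foxm1, Cenpe, Cenpf and Mki67. The ratio was lower in genes with longer transcripts, with a Spearman correlation of -0.30 across the 42 genes, -0.72 across the 23 G2/M genes, 0.18 across the 19 S phase genes and -0.29 across 13770 genes, which are not independent of each other. The T and NK cell markers summed to 127 CPM in mouse 2 and 227 CPM in mouse 1, and the fibroblast markers to 3786 CPM in mouse 2 and 2476 CPM in mouse 1. In the fibroblast list Col3a1 was higher in mouse 2 (3012 CPM against 1837 CPM in mouse 1) and Col1a1 lower (34.4 CPM against 70.2 CPM), and the mean log2 CPM of the list was 5.13 in mouse 2 and 5.54 in mouse 1. The part of length or of these cells in the ratio was not tested. In clone 2 the mice were close, with mouse 2 higher in 29 members and lower in 13 and log2 ratios from -0.28 to 0.19.

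Further cell cycle genes outside the 42 gave 0 calls between KO and WT by edgeR's quasi-likelihood test as well. Of 32 other replication genes, 15 were positive and 17 negative, with a median of -0.02; of 45 other mitosis genes, 17 were positive and 28 negative, with a median of -0.09; 0 passed in either list by edgeR's quasi-likelihood test. At an unadjusted p under 0.05 the replication list had 0 higher and 5 lower genes and the mitosis list 1 higher and 8 lower. These were 15.6% and 20% of the lists, beside 13.6% of all genes in either direction and 7.38% lower. Incenp, the scaffold of the chromosomal passenger complex, had the smallest p of these. Incenp stood at 76.3, 92.3, 67.1 and 69.6 CPM in KO libraries, against 113 and 147 CPM in WT libraries, every KO library below both WT libraries (log2 fold change -0.77 ± 0.20, adjusted p = 0.226). Ncapd2, a condensin subunit (log2 fold change -0.79 ± 0.22), Clspn, the checkpoint adaptor claspin (-0.71 ± 0.20), and Chaf1a, a histone chaperone of the fork (-0.66 ± 0.20), were next on the lower side. In each of them every KO library lay below both WT libraries, and WT mouse 2 was the highest library. WT mouse 1 and mouse 2 stood at 111 and 170 CPM for Ncapd2, beside a KO mean of 81.3 CPM. For Clspn they stood at 52.3 and 75.3 CPM, beside 39.1 CPM, and for Chaf1a at 61.7 and 88.1 CPM, beside 47.2 CPM. The difference was thus smaller against WT mouse 1 than against WT mouse 2. Pttg1, the securin that guards sister chromatids (log2 fold change 0.61 ± 0.21), Kif18a, a kinesin (0.70 ± 0.51), Pole2, a subunit of a replicative polymerase (0.66 ± 0.46), and Dbf4, the activator of the CDC7 kinase (0.38 ± 0.26), had the smallest p on the higher side and did not pass. For the last 3 the value rests on WT mouse 2. Kif18a stood at 18.7, 26.9, 27.5 and 28.2 CPM in KO libraries, against 25.0 and 5.71 CPM in WT libraries, and WT mouse 1 lay within the KO range for it, as for Pole2 and Dbf4. Without WT mouse 2 the log2 fold change was 0.01 for Dbf4 and -0.0045 and -0.0022 for Kif18a and Pole2.

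Genes of G1 entry and of cell cycle brakes were measured beside them. Of 12 G1 entry genes 7 were positive and 5 negative, with a median of 0.07, and 0 passed. Ccnd1, the cyclin D1 that growth signals induce, stood at 799, 844, 609 and 594 CPM in KO libraries, against 495 and 527 CPM in WT libraries. All KO libraries lay above both WT libraries and clone 1 above clone 2, with a log2 fold change of 0.48 ± 0.22 (adjusted p = 0.379). Lin54, the DNA-binding subunit of the MuvB complex, had a log2 fold change of 0.52 ± 0.30, which was 0.03 without WT mouse 2; WT mouse 1, at 51.2 CPM, lay within the KO range, and WT mouse 2 was at 22.7 CPM. On the lower side were the activator E2f2 (log2 fold change -0.59 ± 0.21) and the growth factor target Myc (-0.34 ± 0.25), which did not pass and stood at log2 fold changes of -0.24 and -0.09 without WT mouse 2. Of 23 brakes 10 were positive and 13 negative, with a median of -0.13, and 0 passed; their summed level was 1915 to 2082 CPM in KO libraries, against 1607 and 1527 CPM in WT libraries, while their mean log2 CPM in every KO library lay between 4.86 in WT mouse 1 and 5.20 in WT mouse 2. Klf4, a transcription factor that restrains proliferation in monocytes and other cells, stood at 146, 209, 205 and 237 CPM in KO libraries, against 119 and 99.5 CPM in WT libraries. It was higher in every KO library than in both WT libraries (log2 fold change 0.86 ± 0.23, adjusted p = 0.245). Rbl2, the pocket protein p130 of the DREAM complex, had a log2 fold change of 0.57 ± 0.18. Cdkn2d, the CDK4/6 inhibitor p19INK4d (log2 fold change -0.81 ± 0.23), and E2f7, an E2F repressor (-1.27 ± 0.42), were negative, and for E2f7 the difference lay mostly in WT mouse 2, at 25.5 CPM against 7.36 CPM in WT mouse 1. DESeq2 called 2 of the genes named here, Incenp (adjusted p = 0.0430) and Klf4 (adjusted p = 0.0395), which edgeR did not.

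Growth factor receptors and lineage factors that bear on macrophage division did not pass either, with 4 of 8 log2 fold changes positive and 4 negative. Maf, a transcription factor that restrains macrophage self-renewal, stood at 138, 96.5, 115 and 109 CPM in KO libraries, against 87.2 and 73.2 CPM in WT libraries, above both WT libraries in all KO libraries (log2 fold change 0.51 ± 0.20, adjusted p = 0.341). Csf2ra, a chain of the GM-CSF receptor, had a log2 fold change of -0.70 ± 0.32. That value rests on WT mouse 2: Csf2ra stood at 100.2, 94.5, 92.5 and 87.0 CPM in KO libraries, against 85.6 and 219 CPM in WT libraries, and the log2 fold change without WT mouse 2 was 0.10. Csf2, the ligand GM-CSF, stood between 0.0969 and 0.409 CPM in KO libraries, against 0.110 CPM in WT mouse 1 and 0.138 CPM in WT mouse 2, where 3 counts correspond to 0.206 CPM, so no fold is given.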

How the data were processed

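The authors deposited a table of estimated counts by gene symbol, all whole numbers and unscaled, for 6 libraries of total RNA made with a TruSeq kit and rRNA depletion (per the labels). The submitters' processing notes list Salmon 0.7.2 and mm10 and give them no role. The transcript set, the use of strand and the way reads of similar genes were split are not stated in the labels. Totals were 20038047 counts in WT mouse 2 and 37090034 to 40022755 elsewhere. Libraries of a group were distinct: their counts differed by 80.5 to 860 times the chi-square that counting noise gives per degree of freedom.

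The main test was the quasi-likelihood F test of edgeR 4.0.16 (R 4.3.3, limma 3.58.1) over the whole table, with filterByExpr (minimum count 10, minimum total 15), TMM factors, and Benjamini-Hochberg adjustment over 15560 genes at a threshold of 0.05. KO against WT was fitted with 2 genotype levels and every comparison of a single clone with 3 groups. For standard errors, the log2 fold change was divided by the square root of F, and 95% intervals used the t distribution with the fit's degrees of freedom. The biological coefficient of variation by genotype was 0.297. The fits were tested on simulated counts. Alternatives were RLE size factors, DESeq2 1.42.0, no filter beyond 1 count, at least 5 CPM in 2 libraries, Rn45s left out, the mouse number as a block, the mean of the clones in the 3-group fit, and each library left out. Gene positions, GC content and the length of the longest coding transcript came from GENCODE M21 (GRCm38), where 20429 of 21760 symbols matched, and promoters from RefSeq (GRCm38.p6).

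The members and lists were chosen with earlier results of these data known. Values in every library are given for 6 members taken whatever their result (Mki67, Top2a, Cdk1, Ccnb1, Pcna and Mcm2), for the 2 members of each of 6 role groups with the smallest unadjusted p in KO against WT, for the 3 in each direction with the smallest p between clones, and for any past the threshold. From other lists the 2 genes with the smallest p in each direction are named, except 1 that is not reported here. Ccne2 and Mcm6 were described further after their values were seen.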

Additional observations from a re-analysis of the deposited data

Results flagged for a closer look

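For 84 genes or marker sums, the highest and the lowest of the 4 KO libraries were checked for a gap to the nearest other KO library that is large beside the range of the group. With 4 independent samples, chance alone gives such a gap in about 5% of groups, and 7 items had one. The 4 KO libraries come from 2 clones and all 84 items share them. The 7 can therefore not be read against that 5%. In 4 members the library of clone 1 mouse 2 stood above the other 3 KO libraries. Gins2, a subunit of the replicative helicase, was at 16.5 CPM there, against 12.5 to 12.8 CPM. Plk1, a mitotic kinase, was at 31.1 CPM, against 21.3 to 22.6 CPM. Kif20a was at 80.9 CPM, against 63.9 to 65.6 CPM. Prc1, which bundles microtubules of the central spindle, was at 115 CPM, against 89.3 to 92.3 CPM. In the same library the summed level of the neutrophil markers was the lowest, at 53.8 CPM, against 69.4 to 71.9 CPM. Kif18a was lowest in clone 1 mouse 1, at 18.7 CPM, against 26.9 to 28.2 CPM. The sum of the 23 brakes was highest in clone 2 mouse 2, at 2082 CPM, against 1915 to 1939 CPM.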

How the results depend on the processing

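The count of members past the threshold was 0 in every comparison under RLE factors, DESeq2, no filter, the stricter filter, without Rn45s and with the mouse number as a block; leaving out 1 library gave 0 to 12 members for KO against WT, 0 to 12 for clone 1 and 0 to 13 for clone 2 against WT, and 0 between clones, with counts above 0 without WT mouse 1 and in no other case. Members that did not overlap WT numbered 19 lower without WT mouse 2 and 16 higher and 14 lower without WT mouse 1, an alternative chosen after seeing the data. With 1 library left out, the members' median log2 fold change ran from -0.24 to 0.02 for KO against WT, -0.22 to 0.11 for clone 1 and -0.28 to 0.04 for clone 2 against WT, and -0.24 to 0.15 between clones, where the 0.15 is the value without clone 1 mouse 2; the causes were not tested. Over all genes, 21 were called for KO against WT, 1 for clone 1, 1 for clone 2 and 0 between clones. DESeq2 called 499, 271, 465 and 117, and no filter 111, 123, 229 and 53. The stricter filter and the block called 0 in each clone against WT. Clone 2 against WT gave 9 with RLE factors and 8 without Rn45s, and KO against WT 1 with the mean of clones. Leaving out 1 library gave 1 to 6020, 0 to 5535, 0 to 6445 and 0 to 87, in each comparison with WT highest without WT mouse 1, where the remaining WT library is assumed to vary like the other groups. Deviations of same-numbered mice from their group means had correlations of -0.13 (clone 1 and WT), 0.05 (clone 2 and WT) and 0.20 (between clones). The -0.13 and 0.05 involve the WT pair, with the outlying library of WT mouse 2. Whether the number pairs the mice thus remained undecided. With the block 15 genes were called for KO against WT. For 44 named genes, 525 of 563 values under alternatives kept their sign and side of the threshold, 27 passed there alone (25 without WT mouse 1, 2 with DESeq2), 11 had another sign without passing and 0 reversed. Among the members the lowest count was 76, for Ccne2 in WT mouse 2.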
